A study of Homo sapiens with 6 samples.

Results

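The genes described here are TXNIP and its arrestin relatives ARRDC4 and ARRDC3, the glucose-responsive transcription factor genes MLXIPL, MLXIP and MLX, and the liver pyruvate kinase gene PKLR. They were chosen by their place in the glucose-sensing ChREBP pathway with their 3D and 2D values already known, so their differences between the cultures are given as a description, without a test. All 7 of 7 symbols were in the table of 19846 genes, and all 7 were among the 15314 genes that passed the filter on low counts. RNA was sequenced from HepG2, an established human liver tumour cell line at passage 7 to 9, grown in 3D in a hollow fiber bioreactor (3 samples) and in 2D on plates (3 samples). The bioreactor received a mixture of EMEM and DMEM in equal parts with 10% serum, antibiotics and GlutaMAX, recirculated at 23.5 mL/min with a feed of 2 mL/hour. The plates held EMEM renewed every 2 days, and no serum or antibiotic content is given for them in the sources used here. Both cultures were kept at 37 °C and 5% CO2, and the labels name no engineered allele and no added drug for either. Culture form, medium and feeding differed together and cannot be told apart, and the labels give neither the glucose content of the media nor the glucose left in them at harvest. The labels also do not say whether samples of a group were separate cultures or runs, so the spread between them may be technical.

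Total counts were 9530795 to 15897621 in 3D samples and 16270361 to 17943513 in 2D samples. The summed level of 8 hepatocyte markers was 26400 to 45200 CPM in 3D and 22600 to 27200 CPM in 2D. The sum was thus high in every sample, but it does not show the level of each marker. Of the 8 markers, 2 were called higher in 3D and 0 lower. CPM is the usual count of a gene relative to the size of its library, here scaled with edgeR's TMM factors. Of 6 fibroblast markers 1 was in the table (PDGFRB, 2.98 to 3.55 CPM in 3D and 6.97 to 13.7 CPM in 2D), and 3 endothelial markers summed to 2.46 to 5.49 CPM in 3D and 2.00 to 4.79 in 2D. Of 5 blood cell markers 2 were in the table (CD14 and CD68), with a sum of 23.9 to 44.5 CPM in 3D and 7.95 to 11.2 CPM in 2D. PDGFRB was called lower in 3D, and 1 of the 2 blood markers was called higher. Markers not in the table were not analysed here, and the part of other cells in the differences below was not tested. In such bulk samples, more cells expressing a gene and more RNA per cell cannot be told apart.

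ChREBP (MLXIPL) and its paralogue MondoA (MLXIP) are helix-loop-helix factors that become active when phosphorylated sugars accumulate. Each pairs with MLX, and the dimer binds carbohydrate response elements, pairs of E-box-like sites a short distance apart. ChREBP is best known in liver, where it drives genes of glycolysis and fat synthesis such as PKLR, while MondoA is best known in muscle and many tumour cells, where TXNIP and ARRDC4 are its most responsive targets. TXNIP binds thioredoxin and promotes removal of glucose transporters from the cell surface, so it acts as a brake on glucose uptake.

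The sequences upstream of the gene starts show where such elements lie in these genes. All 7 genes matched RefSeq promoters (build GRCh38.p14), with 10 starts in all. The 250 bases before each start were searched on both strands for the E-box CACGTG and for a pair of E-box-like sites separated by 5 bases, each being CACGNG or its reverse complement CNCGTG. An E-box also matches the E-box-like pattern. The pair pattern was written with the known elements of TXNIP and PKLR in mind, so its presence there is no finding. The first sequence below holds the pair of the TXNIP promoter (chr1:145996580-145996829, minus strand), the second that of the downstream PKLR start (chr1:155300953-155301202, minus strand), which serves the liver enzyme. The other two hold single E-boxes, in ARRDC4 (chr15:97960453-97960702, plus strand) and MLX (chr17:42566850-42567099, plus strand). They are shown because they carry the only matches among the promoters of the members, apart from an E-box 197 bases before the upstream PKLR start. Capitals mark the matched sites.
TXNIP: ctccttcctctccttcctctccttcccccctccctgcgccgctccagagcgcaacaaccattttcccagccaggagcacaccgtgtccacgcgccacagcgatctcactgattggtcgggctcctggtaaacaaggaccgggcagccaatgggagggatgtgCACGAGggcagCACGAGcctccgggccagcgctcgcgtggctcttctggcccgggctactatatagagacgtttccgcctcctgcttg
PKLR: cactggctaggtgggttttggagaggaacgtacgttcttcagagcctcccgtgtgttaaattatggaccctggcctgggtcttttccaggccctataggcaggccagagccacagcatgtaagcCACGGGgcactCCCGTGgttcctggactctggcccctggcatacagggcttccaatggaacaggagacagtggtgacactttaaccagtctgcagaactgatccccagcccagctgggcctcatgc
ARRDC4: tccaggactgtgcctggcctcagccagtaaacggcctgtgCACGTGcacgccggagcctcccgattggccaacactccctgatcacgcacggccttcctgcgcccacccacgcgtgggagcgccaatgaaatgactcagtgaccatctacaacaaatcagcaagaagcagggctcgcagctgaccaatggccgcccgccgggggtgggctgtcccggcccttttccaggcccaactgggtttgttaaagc
MLX: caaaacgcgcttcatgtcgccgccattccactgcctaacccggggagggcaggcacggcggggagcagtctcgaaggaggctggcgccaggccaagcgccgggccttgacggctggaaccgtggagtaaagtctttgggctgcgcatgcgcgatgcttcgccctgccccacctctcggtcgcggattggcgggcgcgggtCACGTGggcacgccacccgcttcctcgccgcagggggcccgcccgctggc

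The pair began 88 bases before the TXNIP start, as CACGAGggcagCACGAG, and 126 bases before the downstream PKLR start, as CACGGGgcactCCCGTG. The E-boxes began 210 bases before the ARRDC4 start and 50 bases before the MLX start. No match lay in these windows of ARRDC3, MLXIPL or MLXIP, which says only that these letters are absent there. Over all 35116 promoters of this length, 6.34% held an E-box and 23 (0.0655%) held a pair.

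The arrestins and the pyruvate kinase gene were higher in 3D, while the factors were level or lower. TXNIP was 4.32-fold, ARRDC4 6.51-fold, ARRDC3 3.00-fold and PKLR 3.34-fold higher in 3D than in 2D. MLX was lower, and MLXIPL and MLXIP had overlapping samples. The 3D and 2D samples did not overlap for 5 of the 7 genes, 4 of them higher and 1 lower in 3D, and among all genes tested the groups did not overlap for 50.5%. Since these values chose the genes, nothing is read from that count.

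TXNIP (chromosome 1, 145992435 to 145996600, minus strand, hg38) was at 125.5, 98.6 and 63.8 CPM in replicates 1 to 3 of 3D, and at 9.70, 33.0 and 23.8 CPM in the same order of replicates in 2D. Every 3D sample stood above every 2D sample, and the lowest 3D sample was 1.93 times the highest 2D sample. The means were 95.9 ± 30.9 CPM in 3D and 22.2 ± 11.7 CPM in 2D (SD, n = 3 each), a log2 fold change of 2.11 (SE 0.44). 2D replicate 1 lay low in its group, at 155 counts against 544 and 429 in the other 2D samples. Without that sample the log2 fold change of TXNIP was 1.75. No other gene of the table overlaps TXNIP. Its nearest neighbours, POLR3GL, which encodes a subunit of RNA polymerase III, and the noncoding LINC01719, were not called (log2 fold changes of 0.21 and −0.10, edgeR adjusted p = 0.368 and 0.879).

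ARRDC4 (chromosome 15, 97960698 to 97973838), a paralogue of TXNIP that also responds to glucose, was at 14.9, 10.98 and 5.77 CPM in 3D and at 1.06, 2.12 and 1.61 CPM in the same order of replicates in 2D. The groups did not overlap, and the 3D samples kept the order seen for TXNIP, as did the 2D samples. 3D replicate 1, where both genes were highest, had the lowest total count of the 6 samples, and the part of depth in this was not tested. The log2 fold change was 2.70 (SE 0.37), on 82 to 170 counts in 3D and 17 to 35 counts in 2D, so counting error alone is larger here than for TXNIP. ARRDC3 (chromosome 5, 91368724 to 91383359), an arrestin that brings ubiquitin ligases to the beta-2 adrenergic receptor, was at 10.7, 25.3 and 7.10 CPM in 3D and at 4.32, 4.12 and 5.99 CPM in 2D. The groups did not overlap, but 3D replicate 2 stood far above the others, and the lowest 3D sample was only 1.18 times the highest 2D sample. Its log2 fold change was 1.58 (SE 0.44) and, without 3D replicate 2, 0.87. ARRDC3 overlaps the antisense gene ARRDC3-AS1 over 3011 bases, and as the handling of strand is not given in the sources used here, their reads cannot be told apart. ARRDC3-AS1 held 46 counts over the 6 samples.

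**Figure D1:**
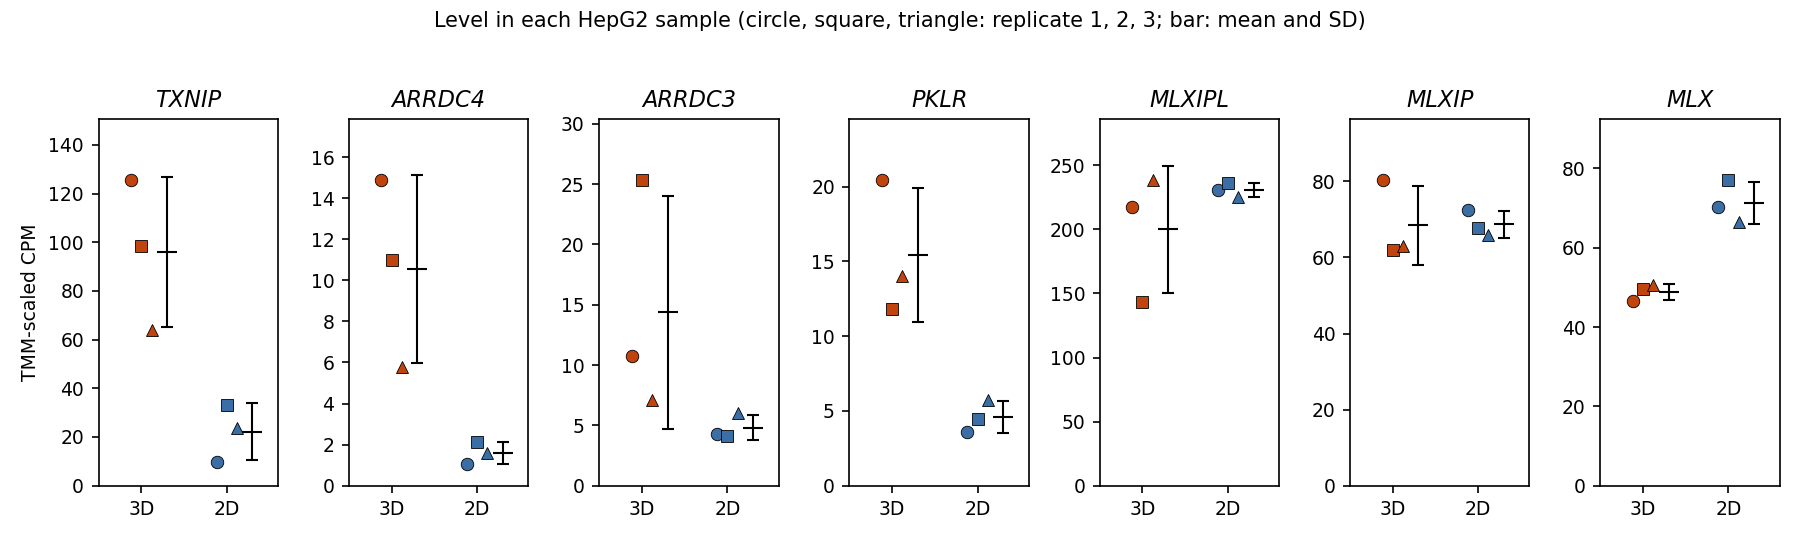
Level of each gene in TMM-scaled CPM (vertical axes, linear from 0) in the 3 samples of 3D and the 3 samples of 2D HepG2 cultures; symbols give the replicate number and the black bar the mean and SD. TXNIP, ARRDC4, ARRDC3 and PKLR lie higher in every 3D sample, MLX lies lower in every 3D sample, and MLXIPL and MLXIP overlap.

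PKLR (chromosome 1, 155289839 to 155301434) encodes the pyruvate kinase of liver and red cells, which catalyses the last step of glycolysis. It was at 20.4, 11.8 and 14.0 CPM in 3D and at 3.57, 4.42 and 5.72 CPM in the same order of replicates in 2D. The groups did not overlap, and the lowest 3D sample was 2.07 times the highest 2D sample. The means were 15.4 ± 4.48 CPM in 3D and 4.57 ± 1.081 CPM in 2D (SD, n = 3 each), a log2 fold change of 1.74 (SE 0.25). The starts of the liver and the red cell transcripts are summed in the table.

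PKM, the pyruvate kinase gene of most other tissues and of tumours, was also higher, at 949.4 ± 69.8 CPM in 3D and 345.5 ± 82.5 in 2D (log2 fold change 1.46, SE 0.18, edgeR adjusted p = 0.00018). Per kilobase of exon, PKLR made up 2.11%, 1.40% and 1.46% of the 2 pyruvate kinase genes together in replicates 1 to 3 of 3D, and 1.03%, 1.77% and 1.40% in 2D. These shares overlapped, with means of 1.66 ± 0.393% in 3D and 1.40 ± 0.373% in 2D (SD, n = 3 each). Of the genes beside PKLR, FDPS, which makes the cholesterol precursor farnesyl diphosphate, was called higher (log2 fold change 1.22, SE 0.19, edgeR adjusted p = 0.000723). HCN3, an ion channel gene whose end overlaps that of PKLR by 10 bases on the other strand, was not called (log2 fold change 0.45, edgeR adjusted p = 0.07), but was called higher without 3D replicate 2 (adjusted p = 0.0319).

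MLXIPL (chromosome 7, 73593194 to 73624543), which encodes ChREBP, was at 218, 144 and 238.5 CPM in 3D and at 231, 236 and 225 CPM in the same order of replicates in 2D. The groups overlapped, since 3D replicate 3 stood above all 2D samples and 3D replicate 2 far below them. The log2 fold change was −0.21 (SE 0.17), with means of 200.1 ± 49.9 CPM in 3D and 230.8 ± 5.49 CPM in 2D (SD, n = 3 each). After correction for transcript length and GC content it was −0.43 (SE 0.14). That shift was smaller than the SD of log2 CPM within groups, 0.28, a spread that lay mostly in 3D. Without 3D replicate 2 the log2 fold change of MLXIPL was −0.02. The shorter, glucose-induced ChREBP isoform starts at another exon, and its reads are not separated from those of the full-length form in a table per gene. A noncoding transcript lies inside the gene on the same strand, at 4.83 ± 1.86 CPM in 3D and 6.64 ± 1.87 in 2D.

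MLXIP (chromosome 12, 122078722 to 122147347), which encodes MondoA, was at 80.3, 62.1 and 62.9 CPM in 3D and at 72.6, 67.7 and 65.8 CPM in the same order of replicates in 2D. The groups overlapped, and the log2 fold change was −0.01 (SE 0.13). MLX (chromosome 17, 42567068 to 42573239), the shared partner, was at 46.5, 49.5 and 50.5 CPM in 3D and at 70.2, 77.0 and 66.5 CPM in 2D. All 3D samples were below all 2D samples, with a log2 fold change of −0.54 (SE 0.12), a level in 3D of 0.686 times that in 2D. MLX shares 925 bases with PSMC3IP on the other strand, a recombination cofactor gene at 11.7 ± 1.42 CPM in 3D and 4.36 ± 0.561 in 2D. As the handling of strand is not given, reads in the shared bases cannot be told apart. The part of PSMC3IP in the MLX values was not tested.

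The genes also differed in how far replicates spread. The SD of log2 CPM within groups was 0.73 for TXNIP, 0.59 for ARRDC4 and 0.69 for ARRDC3, higher than for 93.1% or more of all genes tested, whose median was 0.216. It was 0.37 for PKLR, 0.28 for MLXIPL, 0.16 for MLXIP and 0.09 for MLX, and only 6.3% of genes spread less than MLX. The arrestins thus had the widest spread of the 7 genes among samples of the same culture, and the MLX family the narrowest. Genes of all levels were compared here, and counting error widens the spread at low counts. By mean CPM, ARRDC4 stood above 28.8%, ARRDC3 above 35.1% and TXNIP above 76.8% of genes, and the MLX family above 77.1% to 95.5%. The part of level in these spreads was not tested.

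Compared per kilobase of exon, a scale on which levels of different genes can be set side by side, MLXIPL was the most abundant of the 7 genes. In 3D its mean was 56.1 CPM per kilobase, followed by TXNIP at 29.9, MLX at 18.9, MLXIP at 7.27, PKLR at 4.87, ARRDC3 at 3.43 and ARRDC4 at 2.59 CPM per kilobase. In 2D the order was MLXIPL at 64.7, MLX at 27.5, MLXIP at 7.29, TXNIP at 6.90, PKLR at 1.44, ARRDC3 at 1.15 and ARRDC4 at 0.393 CPM per kilobase. TXNIP stood below MLX in all 3 samples of 2D and above it in 3D, but in 3D replicate 3 only at 19.8 against 19.5 CPM per kilobase. So small a margin does not rank the 2 genes in that sample. Neighbours whose samples overlapped were PKLR and ARRDC3 in both cultures, ARRDC3 and ARRDC4 in 3D, and MLXIP and TXNIP in 2D. MLXIPL exceeded MLXIP 6.11- to 10-fold in 3D and 8.39- to 9.23-fold in 2D on this scale.

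Likeness of profiles was measured as the root mean square difference between centred log2 CPM values over the 6 samples, among 11313 genes with a mean of 5 CPM or more. The difference between 3D and 2D, known when the members were chosen, is part of this measure. A small value can thus reflect a like fold change between the cultures, and no shared regulation is read from it. For TXNIP the 3 most similar genes were NYNRIN at 0.10, ADGRG1, an adhesion receptor gene, at 0.32, and ARRDC4 at 0.34, while the median gene was at 1.28. NYNRIN was at 44.2, 28.8 and 22.7 CPM in 3D and at 3.26, 10.8 and 7.44 CPM in the same order of replicates in 2D, with 2D replicate 1 lowest as for TXNIP. For ARRDC4 the most similar were BGN, a matrix proteoglycan gene, ITGA3, an integrin gene, and ADGRG1 (0.17 to 0.29). For PKLR they were SPINT1, a protease inhibitor gene, NECTIN4, an adhesion gene, and the noncoding RP11-473I1.9 (0.12 to 0.17). For ARRDC3 they were ADAMTS6, PPP1R3C, a glycogen-targeting subunit of protein phosphatase 1, and ISM2 (0.23 to 0.26). TXNIP differed from PKLR by 0.55 and from ARRDC3 by 0.83 on this measure. BGN, ITGA3, SPINT1, RP11-473I1.9, ADAMTS6 and ARRDC4 reached the mean of 5 CPM only through their 3D samples, with 2D means of 1.42 to 2.98 CPM. ZNF696 was nearest to MLXIPL (0.07), ZNF74 to MLXIP (0.03) and MPZL3 to MLX (0.04).

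**Figure D2:**
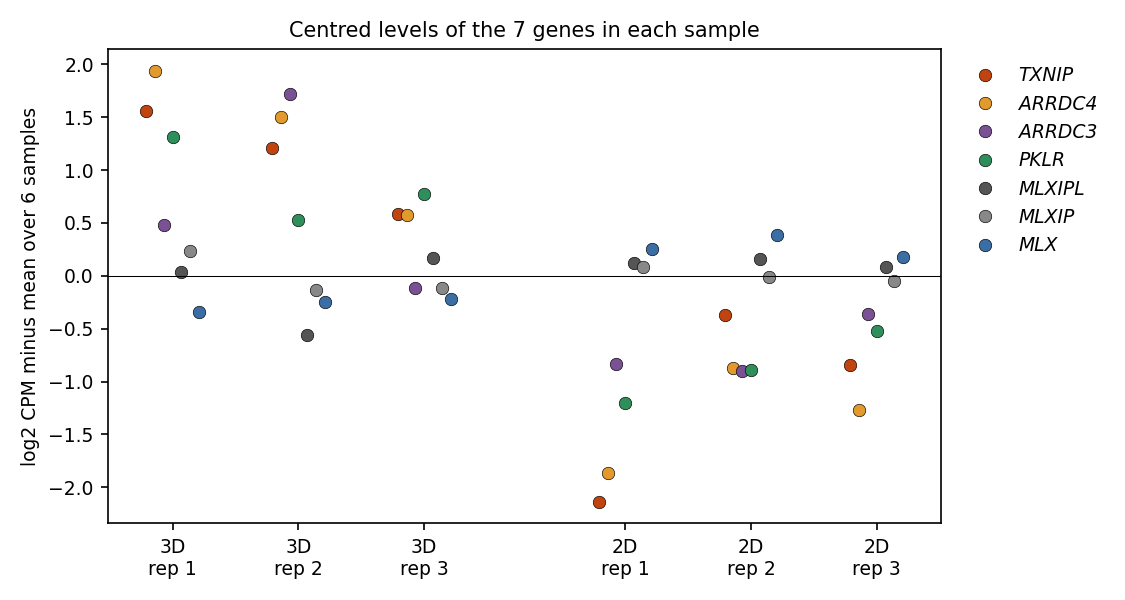
Log2 CPM of each gene minus its mean over the 6 samples (vertical axis) in each 3D and 2D sample; points of different genes are shifted sideways to be seen. TXNIP and ARRDC4 have their highest values in 3D replicate 1 and their lowest in 2D replicate 1, ARRDC3 has its highest in 3D replicate 2, and MLX lies below 0 in every 3D sample and above 0 in every 2D sample.

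The other genes of the pathway were tested with edgeR in the fit of all 15314 genes, of which 36.6% were called at an adjusted p under 0.05 (19% higher and 17.6% lower in 3D). The lists were chosen with earlier results of these data known. Of 27 tested genes described as ChREBP or MondoA targets, 15 rose and 3 fell. The median of their log2 fold changes was 0.64, against 0.02 over all genes tested. Among genes of fructose and glycerol handling, TKFC, which phosphorylates the sugars dihydroxyacetone and glyceraldehyde, rose 5.64-fold (207.6 ± 31.5 CPM in 3D and 36.7 ± 6.35 CPM in 2D, SD, n = 3 each; log2 2.50, SE 0.16, edgeR adjusted p = 1.22e-05). KHK, the fructokinase, rose 1.55-fold (log2 0.64, and 0.41 after the length and GC correction). GPD1, which makes glycerol phosphate, rose 4.28-fold, and BHLHE40, a transcriptional repressor of the clock, rose 5.37-fold (edgeR adjusted p = 2.41e-05 and 5.21e-05). PFKFB3, which makes an activator of glycolysis, had the largest change of the list (log2 3.20, SE 0.41).

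Of the genes of fat synthesis on the list, FASN, the fatty acid synthase, rose to 1056 ± 264 CPM in 3D, against 574.6 ± 83.8 CPM in 2D (log2 0.88, SE 0.19, edgeR adjusted p = 0.00491). ACLY, which makes cytosolic acetyl-CoA, rose 1.87-fold (adjusted p = 0.00102). SCD, the stearoyl-CoA desaturase, rose 1.87-fold as well, but its call (edgeR adjusted p = 0.0338) was lost with DESeq2 (adjusted p = 0.0641), without 3D replicate 2 (0.0872), without 2D replicate 1 (0.105) and without 2D replicate 2 (0.0997). ACACA, the acetyl-CoA carboxylase between ACLY and FASN, averaged 77.7 ± 16.6 CPM in 3D and 84.5 ± 7.55 in 2D (log2 −0.12, SE 0.16, adjusted p = 0.578). ACACB, its mitochondrial counterpart, ELOVL6, a fatty acid elongase, and DGAT2, which completes triglycerides, were not called either (log2 0.22, 0.22 and 0.18, edgeR adjusted p = 0.258, 0.433 and 0.408). After the length and GC correction ACACB and ELOVL6 were called higher (log2 0.39 and 0.57, edgeR adjusted p = 0.0302 and 0.0277). The target list also held the pentose phosphate genes TALDO1 (1.77-fold, log2 0.83, and 0.49 after the length and GC correction) and TKT (1.28-fold), both called higher. The TKT call (edgeR adjusted p = 0.045) was lost in 11 of the 17 other settings, among them 5 that left out a single sample, with adjusted p between 0.0503 and 0.294.

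Targets concerned with glucose itself went both ways. G6PC, G6PC3 and SLC37A4, the glucose-6-phosphatase genes and their transporter, were all called higher (log2 2.12, 1.12 and 0.94), with 0.73 for G6PC3 after the length and GC correction. SLC2A2, the liver glucose transporter GLUT2, fell to 14.6 ± 6.04 CPM in 3D, against 26.7 ± 3.12 CPM in 2D (log2 −0.85, SE 0.25, edgeR adjusted p = 0.0208). That call was lost without 3D replicate 3 (adjusted p = 0.0746), without 2D replicate 2 (0.0632) and without 2D replicate 2 and 3D replicate 1 together (0.103). HK2 fell too (log2 −0.71), as did GPAM, the first enzyme of triglyceride assembly, at log2 −0.76, or −0.32 after the length and GC correction. GCKR, a liver regulator of glucose phosphorylation, averaged 13.1 ± 2.4 CPM in 3D and 9.19 ± 1.097 in 2D (adjusted p = 0.057). It was called higher without 3D replicate 2 (adjusted p = 0.0254) and with upper-quartile scaling (0.0499). FGF21, a hormone secreted by liver, had 0, 2 and 1 counts in 3D and 5, 8 and 5 counts in 2D, too few to be tested.

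**Figure D3:**
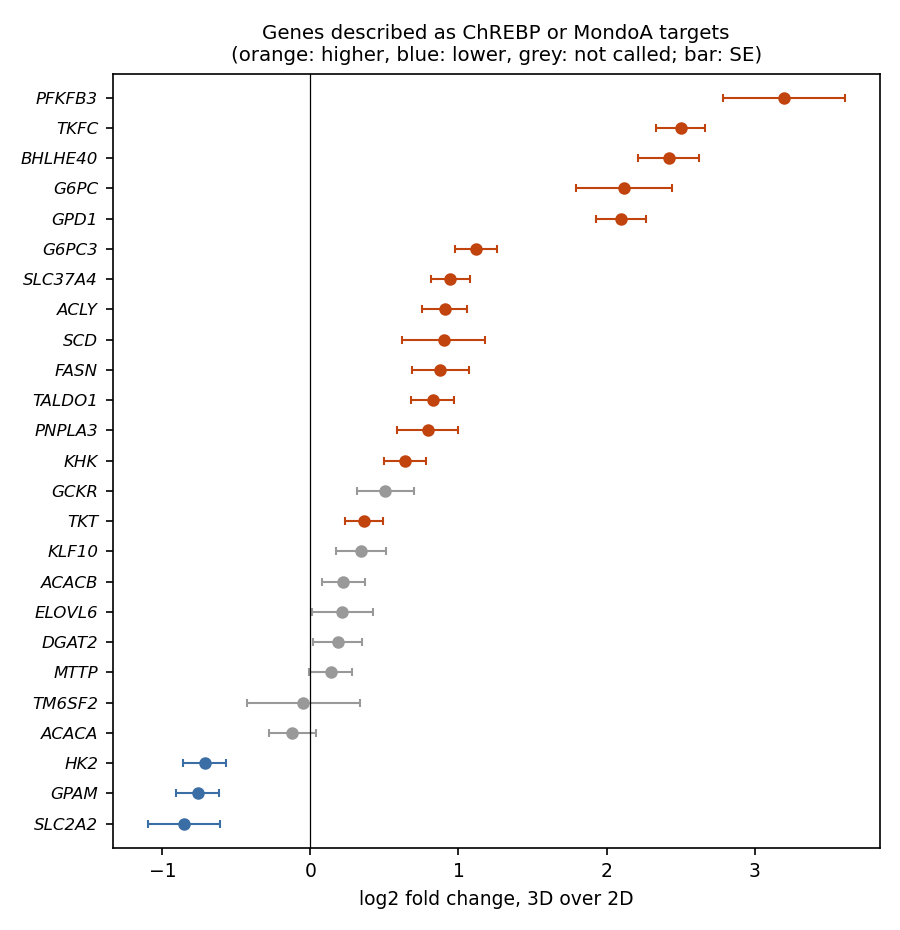
Log2 fold change of 3D over 2D (horizontal axis) with its standard error for 25 of the 27 tested genes described as ChREBP or MondoA targets, ordered by size. The genes called higher reach from TKT at 0.36 to PFKFB3 at 3.20, and the 3 called lower are HK2, GPAM and SLC2A2.

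The remaining arrestin genes were not called. ARRDC1 averaged 17.4 ± 2.69 CPM in 3D and 17.4 ± 2.20 in 2D, and ARRDC2 averaged 6.31 ± 0.447 CPM in 3D and 7.03 ± 0.988 in 2D (SD, n = 3 each). Of the 4 tested members, which also include the beta-arrestin genes ARRB1 and ARRB2, 0 were called by edgeR, DESeq2 or limma-voom, and 0 had an unadjusted p under 0.05 in edgeR. After the length and GC correction ARRDC1 was called lower (log2 −0.45, edgeR adjusted p = 0.0289), and 2 of the 4 had an unadjusted p under 0.05. The difference between these genes and TXNIP, ARRDC4 and ARRDC3 was not tested.

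In the wider MYC and MAX network, to which MLX belongs, 1 of 9 tested genes rose and 4 fell, 55.6% called against 36.6% of all genes. The median of their log2 fold changes was −0.71, and −0.41 after the length and GC correction. MYC, the growth-promoting factor, fell to 178 ± 44.6 CPM in 3D, against 297.1 ± 2.72 CPM in 2D (log2 −0.74, SE 0.16, edgeR adjusted p = 0.00466), and its partner MAX fell by 0.74 on the log2 scale. MXD1, a repressor of the network, fell to 21.5 ± 7.03 CPM in 3D, against 43.2 ± 4.96 CPM in 2D. MGA, a large repressor of the network, fell by 0.90 on the log2 scale (−0.37 after the length and GC correction). MXD3 rose 1.72-fold. MNT, also a repressor, averaged 27.7 ± 0.886 CPM in 3D and 34.5 ± 1.54 in 2D (adjusted p = 0.0665), and was called lower after the length and GC correction (adjusted p = 0.025). MXD4, another such repressor, averaged 70.1 ± 16.4 CPM in 3D and 59.0 ± 2.08 in 2D (adjusted p = 0.239).

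Of 16 tested thioredoxin genes and arrestin partners, 4 rose and 5 fell, 56.2% called against 36.6% of all genes. TXN, the cytosolic thioredoxin that TXNIP binds, rose to 169 ± 33.8 CPM in 3D, against 90.2 ± 8.67 CPM in 2D (log2 0.91, SE 0.16, edgeR adjusted p = 0.00117). TXN2, its mitochondrial counterpart, rose 1.5-fold (log2 0.58, and 0.32 after the length and GC correction). TXNRD1, the reductase that recharges TXN, averaged 169 ± 19.6 CPM in 3D and 167.2 ± 2.25 in 2D (adjusted p = 0.944).

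Of the glucose transporters on that list, SLC2A3 (GLUT3) rose 3.42-fold (log2 1.77, SE 0.35, edgeR adjusted p = 0.00608), while SLC2A1 (GLUT1), which TXNIP removes from the surface, averaged 644.5 ± 218 CPM in 3D and 618.5 ± 104 in 2D (adjusted p = 0.861). INSR, the insulin receptor, fell by 0.92 on the log2 scale. PRKAA1, a catalytic subunit of AMPK, the kinase that marks TXNIP for degradation, had a log2 fold change of −0.81, or −0.43 after the length and GC correction. The ubiquitin ligase genes NEDD4, NEDD4L and ITCH, of which ITCH targets TXNIP, were called lower (log2 −0.79, −0.47 and −0.43, edgeR adjusted p = 0.000846, 0.00969 and 0.0157). All these ligase calls were lost after the length and GC correction (log2 −0.31, −0.09 and −0.06, adjusted p = 0.0778, 0.572 and 0.642). The ITCH call was also lost without 3D replicate 3 (adjusted p = 0.0537), without 2D replicate 1 (0.052) and without 2D replicate 3 (0.0558). WWP1 and WWP2, ligase genes of the same list, were not called (log2 −0.18 and 0.35, edgeR adjusted p = 0.241 and 0.0675). DDIT4, a stress protein that partners with TXNIP, was called higher (log2 0.44, adjusted p = 0.0321), a call lost in 7 of the 17 other settings, among them the length and GC correction (log2 0.13, adjusted p = 0.541).

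Of 22 tested genes of sugar input and ChREBP regulation, 2 rose and 5 fell, 31.8% called against 36.6% of all genes. GPI, which converts glucose 6-phosphate to fructose 6-phosphate, rose to 287.2 ± 8.64 CPM in 3D, against 129.9 ± 19.3 CPM in 2D (log2 1.14, SE 0.13, edgeR adjusted p = 0.000151). The remaining named genes of the list concern protein sugar modification and transcription. OGT, the transferase that attaches N-acetylglucosamine to proteins, ChREBP included, fell to 142 ± 20.9 CPM in 3D, against 380.8 ± 33.9 CPM in 2D (log2 −1.43, SE 0.14, adjusted p = 6.65e-05). GFPT1, the rate-limiting enzyme that supplies it with sugar, fell as well (log2 −0.96, SE 0.16, and −0.48 after the length and GC correction). MGEA5, which removes the modification, averaged 71.2 ± 5.82 CPM in 3D and 79.9 ± 7.88 in 2D (adjusted p = 0.318).

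The acetyltransferase genes EP300, CREBBP and KAT2B, coactivators of many factors, were called lower (log2 −0.93, −0.85 and −0.97). The call of KAT2B, at 3.02 ± 1.16 CPM in 3D and 5.96 ± 0.889 in 2D, was lost after the length and GC correction (edgeR adjusted p = 0.0684), without 3D replicate 2 (0.0719), without 2D replicate 3 (0.0781) and without 2D replicate 2 and 3D replicate 1 together (0.0818). SREBF1, which encodes the insulin-responsive factor of fat synthesis, rose 1.38-fold (log2 0.47, SE 0.11, adjusted p = 0.00761, and log2 0.30 after the length and GC correction). The liver X receptor genes NR1H2 and NR1H3, which regulate MLXIPL, were at 14.7 ± 1.40 and 16.1 ± 1.06 CPM in 3D, against 14.8 ± 2.37 and 16.6 ± 1.62 CPM in 2D (adjusted p = 0.996 and 0.828). HNF4A, a hepatocyte factor that cooperates with ChREBP, averaged 324.9 ± 23.8 CPM in 3D and 353.7 ± 20.2 in 2D (adjusted p = 0.453). HK3 was not analysed here.

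**Figure D4:**
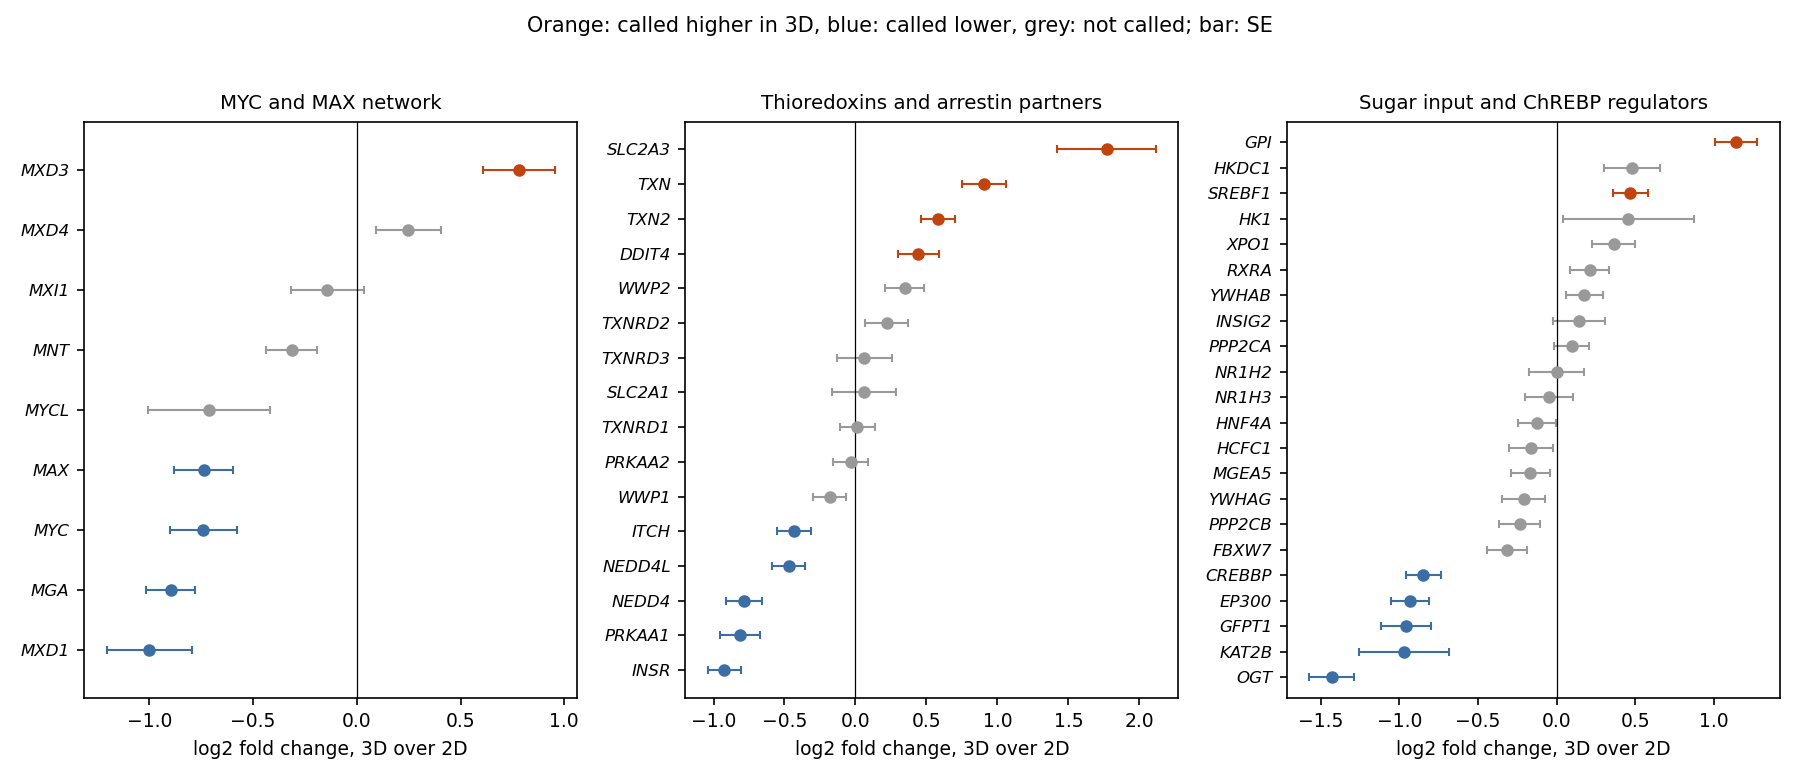
Log2 fold change of 3D over 2D (horizontal axes) with its standard error for the tested genes of the MYC and MAX network, of the thioredoxins and arrestin partners, and of sugar input and ChREBP regulation. OGT at −1.43 and GFPT1 at −0.96 lie among the lowest of the last group, GPI at 1.14 is its highest, and SLC2A3 at 1.77 is the highest of the middle group.

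The pair of E-box-like sites shown for TXNIP and PKLR was found before the starts of 23 genes, of which 14 besides TXNIP and PKLR were tested. Of these, 5 rose, 2 fell and 7 were not called. The 36.6% called among all genes stands beside 7 of 14 here, too few genes to read a difference from. GFPT1 and AKAP10 fell (log2 −0.96 and −0.49), and ATP5I, MYL5, HPF1, TIGD1 and KCTD5 rose by 0.45 to 1.11 on the log2 scale. ATP5I, a subunit of the mitochondrial ATP synthase, and MYL5, a myosin light chain, lie on opposite strands of chromosome 4 and their pairs are reverse complements of each other. GFPT1 and MYL5 kept their calls in all 17 other settings, while the call of TIGD1 was lost in 11 of them, KCTD5 in 8, HPF1 in 5, AKAP10 in 3 and ATP5I in 2, with edgeR, DESeq2 or limma-voom adjusted p between 0.0521 and 0.34. HES1, a Notch target, was not called (log2 0.08, adjusted p = 0.887), but it was called lower without 3D replicate 3 (log2 −0.56, adjusted p = 0.0257).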

How the data were processed

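Per the submitters' processing notes, the authors used STAR 2.4.1d, Partek and the build hg38; neither annotation, filters nor strand setting is stated there. The authors deposited estimated counts per gene, not scaled between libraries, for 6 samples. They were rounded to whole numbers, and the table's stop positions were lowered by 1, since 15682 genes then end where GENCODE 29 ends them. Groups and replicate numbers came from the sample titles.

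Genes were tested with edgeR 4.0.16 in R 4.3.3 (filterByExpr, TMM, robust quasi-likelihood fit, culture as the only term, Benjamini-Hochberg adjustment over the 15314 genes kept, call at an adjusted p under 0.05). The standard error comes from the F statistic. Exonic length and GC content were taken from GENCODE 29, with both known for 89.7% of tested genes. The members, lists and rules were chosen with earlier results of these data known. Named list genes are up to 4 called genes per list and direction with the largest change and a mean of 1 CPM or more, plus a written list kept whatever its result; G6PC3, SLC37A4, GPD1, TALDO1, TKT, MGEA5, CREBBP, NR1H2, NR1H3, ACACB, ELOVL6 and DGAT2 and the other genes with a paired site were named after their values were seen. Some list genes are counted but not reported here. A count of 3, the floor for a gene without counts, is 0.167 to 0.298 CPM and covers counting error only. Alternatives were DESeq2 1.42.0, limma-voom (limma 3.58.1), RLE and upper-quartile scaling, TMM leaving out mitochondrial genes and the top 50 by abundance, 2 other filters, a loess offset for length and GC content (span 0.5), the replicate number as a block, and runs without libraries. The scripts were tested on simulated data. No pair of replicates agreed within sampling noise (chi-square per degree of freedom 11.2 to 29.5).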

Additional observations from a re-analysis of the deposited data

How the results depend on the processing

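Over 17 other settings, the log2 fold changes of TXNIP, ARRDC4, ARRDC3 and PKLR stayed positive and those of MLX and MLXIPL negative, while MLXIP lay between −0.16 and 0.09. Leaving out single samples gave 1.75 to 2.49 for TXNIP, 2.37 to 2.99 for ARRDC4, 0.87 to 1.91 for ARRDC3 and 1.48 to 1.93 for PKLR. For MLXIPL it gave −0.36 to −0.02, the value nearest 0 being that without 3D replicate 2, so its lower mean in 3D rested largely on that sample. MLX was at −0.63 after the length and GC correction, a shift larger than its within-group SD. With 2D replicate 2 and 3D replicate 1, doubted from earlier results, left out together, the values were 2.26 for TXNIP, 2.62 for ARRDC4, 1.64 for ARRDC3, 1.45 for PKLR and −0.47 for MLX.

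The number of genes called higher in 3D was 2910, and 1938 to 2817 without single samples; the lowest was without 2D replicate 1. Of the list counts, the sugar input and ChREBP regulation list had 4 genes higher, against 2, with upper-quartile scaling, after the length and GC correction, and after that correction in a blocked fit. After this correction, in either fit, the arrestin list had 1 gene lower, against 0, and the thioredoxin and partner list 2 lower, against 5. The other 163 list counts were within 1.5 times the main count. Of the values of single named genes in other settings, 1109 stayed on their side of the threshold, 70 lost the call, 9 gained it and 1 (HES1, −0.56 without 3D replicate 3, within −0.56 to 0.32 over single samples left out) turned round.

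The replicate numbers did not pair the samples: deviations of same-numbered samples from their group means correlated at 0.0489, −0.00912 and −0.0761, and 1 of 3 samples of 3D correlated best with its own number. With the replicate number as a block, 2747 genes were higher and 2611 lower, TXNIP was at 2.17, the SCD call was lost (edgeR adjusted p = 0.0528) and so was that of SLC2A3 (0.104). With the block and the length and GC correction together, the SREBF1 call was lost (log2 0.29, edgeR adjusted p = 0.0668). The 2D samples held 17 to 35 counts of ARRDC4, 57 to 103 of PKLR and 68 to 108 of ARRDC3, which limits the precision of their values.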
